A study of Homo sapiens with 21 samples.

Results

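The genes described here are 6 kallikrein-related peptidases, *KLK5*, *KLK6*, *KLK7*, *KLK8*, *KLK10* and *KLK11*, of 15 kallikrein genes and 53515 genes in the count files. They were chosen by name with their levels in all 17 cell lines and their changes in every resistant cell line already known, so their levels and changes are given as a description, with no test. Each gene was found as the row whose Ensembl identifier maps to its symbol, and all 6 had a row. RNA sequencing covered 7 parental cell lines and 10 cell lines made resistant to a cancer drug by culture in rising doses. HepG2, from liver, was the parent of the sorafenib-resistant lines HepG2S1 and HepG2S3. PancVB, a pancreatic cancer line (Panc 03.27), was the parent of PancB1Q and PancB1V, resistant to 5-fluorouracil. The lung adenocarcinoma line HCC4006 was used as 2 parental stocks, HCC4006P1 with the erlotinib-resistant HCC4006ER and HCC4006P2 with the gefitinib-resistant HCC4006GR. HCC827P was the lung parent of the gefitinib-resistant HCC827GR. The ovarian line UWB1.289 gave rise to U10 and U100, resistant to olaparib, and the ovarian line IGROV-1 to IGROV-1/CDDP, resistant to cisplatin. Each resistant line is 1 derived line, so a change that its derivation happened to fix cannot be told apart from one that goes with resistance. The study assigned a full epithelial to mesenchymal transition to the liver, pancreas and lung resistant lines and a partial transition to the 3 ovarian resistant lines.

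Kallikreins are secreted serine proteases that leave the cell as inactive precursors and are activated by removal of a short propeptide, in part by each other. In the outer layer of the skin *KLK5*, *KLK7* and *KLK8* form a proteolytic cascade that cuts the desmosomal contacts between cells, and the inhibitor LEKTI, the product of *SPINK5*, restrains it. Several members are made by glandular epithelia and by carcinomas of such epithelia, and *KLK6* and *KLK8* are also known from the nervous system. *KLK6* is best known there as neurosin and *KLK8* as neuropsin, *KLK10* was first described as a gene of normal breast epithelial cells, and *KLK11* encodes a trypsin-like member.

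The 13 lines other than HepG2, HepG2S3, HCC4006P1 and HCC4006ER had 1 library, and these 4 had 2. Counts on genes ranged from 9851195 to 36639473 a library, with a median of 19498932. At these depths 3 counts, taken here as the smallest detected number, correspond to 0.0819 to 0.305 CPM, the count scaled to a total of 1000000 counts on genes. With chromosomes sorted alphabetically by name, replicate 1 of HCC4006P1 had no count for any of 1679 genes past a point on chromosome 7. Each of these genes had 50 or more counts in replicate 2. Chromosome 19, which carries the kallikreins, comes before that point in this order and was complete. The genes past this point held 18.1% of the counts of replicate 2, so CPM in replicate 1 are on a smaller total. The lung markers *NKX2-1* and *NAPSA* were at 0.0802 and 0.106 CPM in HCC4006P1 and at 113 and 143 CPM in HCC4006P2. The liver marker *ALB* was at 12183 CPM in HepG2, 9.17 in HepG2S3 and 0 in HepG2S1. Of the pancreas and duct markers, *KRT19* was at 677, 82.0 and 28.6 CPM and *SOX9* at 94.3, 194 and 205 CPM in PancVB, PancB1Q and PancB1V, while *PDX1* did not pass 0.201 CPM. The ovarian marker *PAX8* was at 357 to 664 CPM in the 5 ovarian lines, *WT1* did not pass 0.488 CPM there and *MUC16* was at 30.1 to 103 CPM in the UWB1.289 lines and 0.473 and 0.554 CPM in the IGROV-1 lines. These are bulk samples, in which fewer cells of a type and less RNA per cell cannot be told apart.

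All 6 genes lie on the minus strand of chromosome 19, within chr19:51446559-51531295 (GRCh37, 84737 bases), in the order *KLK5*, *KLK6*, *KLK7*, *KLK8*, *KLK10* and *KLK11* by rising coordinate, with *KLK9* between *KLK8* and *KLK10*. *KLK8* and *KLK9* overlap by 204 bases on the same strand. ENSG00000269741, a protein-coding gene of the same strand, overlaps 6694 of the 6705 bases of *KLK8*. It had no row in the count files, so its reads could not be told apart from those of *KLK8*. ENSG00000279676 overlaps *KLK6* by 585 bases on the same strand and had no row either. The annotation has 3 long non-coding RNAs on the opposite strand that overlap members, and 0 of them had a row in the count files. The library kit kept strand, and whether the counting used it was not stated.

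*KLK5*, *KLK6* and *KLK10* were the members with the highest levels and passed 10 CPM in the same lines, so the sequence just before their transcripts is shown. RefSeq windows of 250 bases before a start site were at hand for 5 of the 6 genes, with 9 start sites in all, and each was found 1 time on chromosome 19 of GRCh37. The runs printed are the parts of 3 windows that lie outside every annotated exon, read 5′ to 3′ on the minus strand. The *KLK5* run is chr19:51456350-51456544 the *KLK6* run is chr19:51472930-51473097 and the *KLK10* run, before its second start site, is chr19:51522966-51523075. Capitals mark a match, on either strand, to the E-box motif CACCTG, whose reverse complement reads CAGGTG.
KLK5: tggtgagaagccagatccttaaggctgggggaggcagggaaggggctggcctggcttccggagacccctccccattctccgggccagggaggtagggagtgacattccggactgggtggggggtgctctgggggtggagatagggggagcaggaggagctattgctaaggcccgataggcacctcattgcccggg
KLK6: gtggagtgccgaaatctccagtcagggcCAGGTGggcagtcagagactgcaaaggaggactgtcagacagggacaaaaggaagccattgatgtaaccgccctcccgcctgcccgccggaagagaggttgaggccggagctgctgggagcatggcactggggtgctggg
KLK10: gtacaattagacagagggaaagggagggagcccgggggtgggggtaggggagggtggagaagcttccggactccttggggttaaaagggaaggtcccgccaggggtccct
The *KLK6* window held 1 such match, starting 222 bases before the start site, and the windows of *KLK5* and *KLK10* held none. CACCTG was present in 17.5% of 34943 RefSeq windows of the same length. Further matches lay 10 bases before a start site of *KLK7* and 13 bases before a start site of *KLK11*. TATAAA (in 10.8% of all windows) and AACCGG (in 5.98%) were in 0 of the 9 windows. CG dinucleotides numbered 6 in the *KLK5* window, 12 in that of *KLK6* and 8 and 9 in the windows of *KLK10*, against a median of 11 over all windows.

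*KLK5*, *KLK6* and *KLK10* passed 10 CPM in the same 3 lines, HCC4006P1, HCC4006P2 and HCC4006GR. *KLK5*, a trypsin-like protease that can activate other kallikreins, was at 40.9 and 33.2 CPM in the HCC4006P1 libraries (mean 37.1 ± 5.41, SD, n = 2), 65.8 in HCC4006P2 and 60.2 in HCC4006GR. The 95% Wilson intervals of HCC4006P2 (61.6 to 70.2) and HCC4006GR (56.4 to 64.3) overlapped, and both lay above HCC4006P1. *KLK5* had 1 count in PancVB and 0 in the other 16 libraries. Both HCC4006ER libraries were among those at 0. *KLK6* reached the highest level of the 6 genes per kilobase of exon (162 CPM per kb in HCC4006P1), and was at 338 and 302 CPM in the HCC4006P1 libraries (mean 320 ± 25.1, SD, n = 2), 65.5 in HCC4006P2 and 47.3 in HCC4006GR. The intervals of these 3 lines did not overlap. *KLK6* was also detected at 3.40 CPM in HCC827P, at 1.39 and 3.27 in the HepG2 libraries, at 1.27 in IGROV-1/CDDP and at 0.386 in HCC827GR. HCC827P and HepG2 had overlapping intervals, and *KLK6* was at 0 counts in 10 of 21 libraries. *KLK10* was at 13.1 and 9.85 CPM in HCC4006P1 (mean 11.5 ± 2.33, SD, n = 2), 34.5 in HCC4006P2 and 26.9 in HCC4006GR, with 3 intervals that did not overlap. It was at 0.865 CPM in HCC827P, 0.593 in IGROV-1/CDDP and 0.362 in PancB1V, which could not be ordered because their intervals overlapped.

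*KLK7*, *KLK8* and *KLK11* were low throughout. *KLK7*, a chymotrypsin-like protease of the skin cascade, was highest in HCC4006P2 with 55 counts (4.04 CPM), followed by HCC4006GR with 19 counts (1.26 CPM). HCC4006P1 had 7 and 6 counts. *KLK8* was highest in IGROV-1/CDDP with 51 counts (2.02 CPM). No other library passed 7 counts of *KLK8*. *KLK11* never passed 8 counts, which it had in IGROV-1/CDDP (0.316 CPM), and was at 0 in 16 of 21 libraries. The levels of *KLK11* in IGROV-1/CDDP and in the 3 HCC4006 lines that had it could not be told apart by their intervals.

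**Figure D1:**
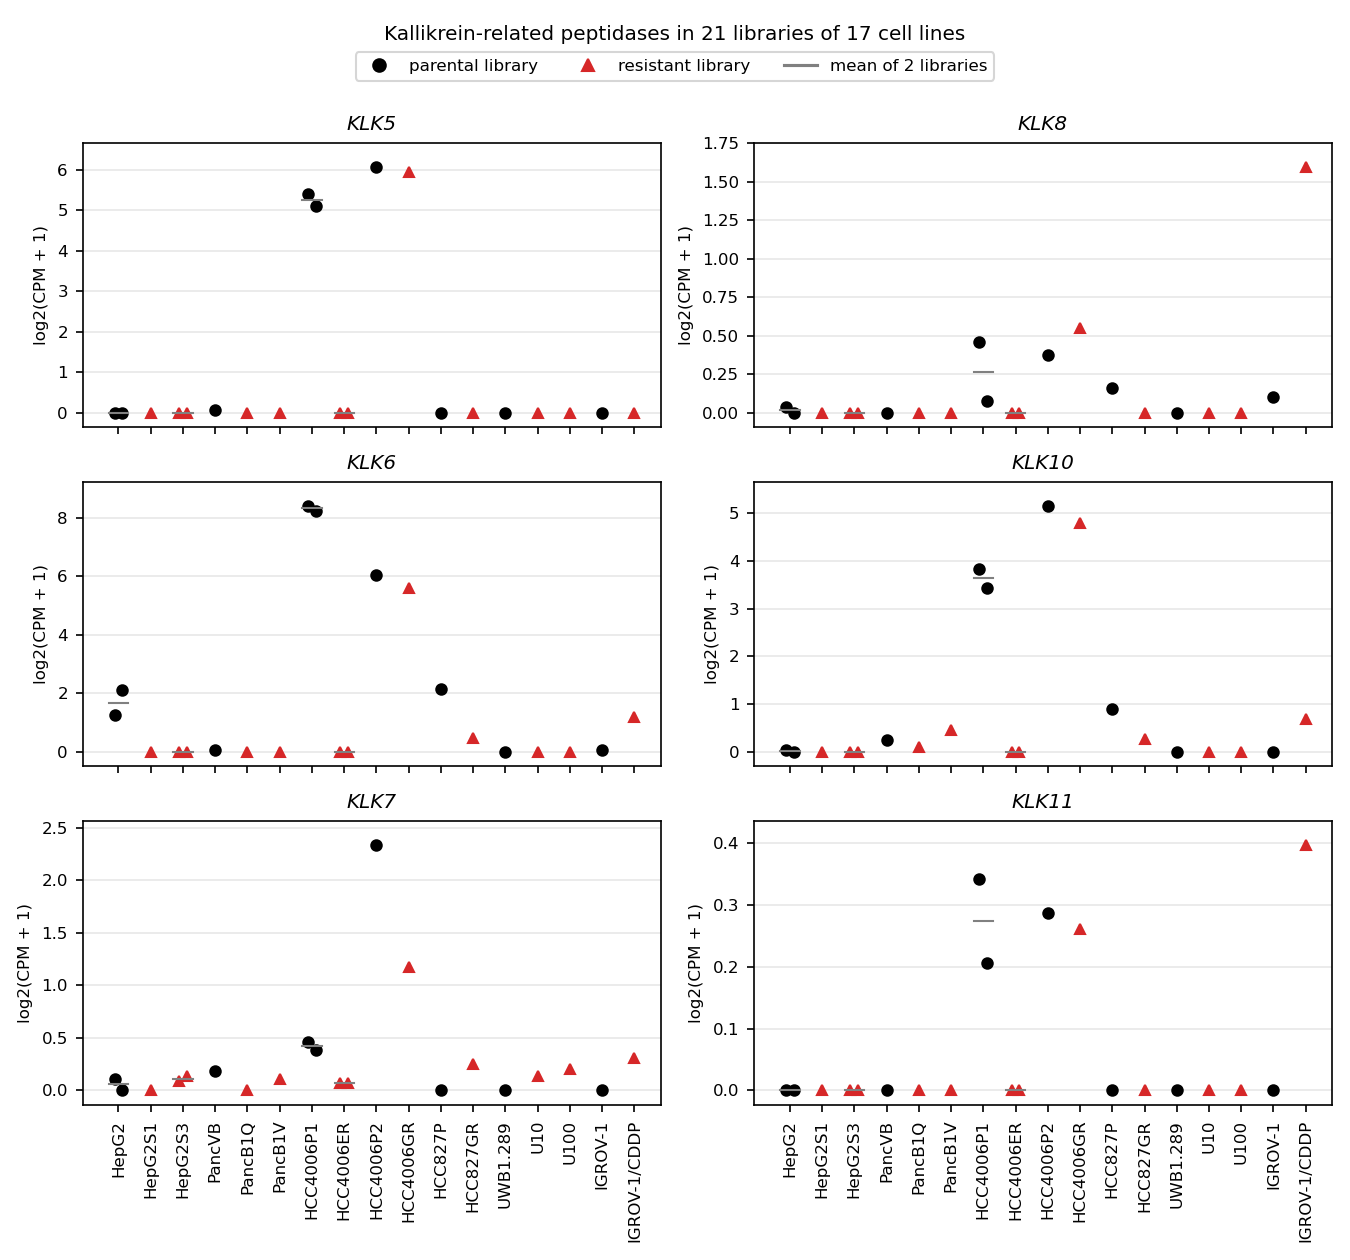
Levels of the 6 kallikreins as log2(CPM + 1) (y axis) in every library of 17 cell lines (x axis); circles are parental and triangles resistant libraries, and a grey line is the mean of 2 libraries. KLK5, KLK6 and KLK10 stand high in HCC4006P1, HCC4006P2 and HCC4006GR and at 0 in both HCC4006ER libraries, and KLK8 is highest in IGROV-1/CDDP (2.02 CPM).

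Log2 fold changes were computed as log2(CPM + 1) of the resistant line minus that of its parent, a scale that understates the change of low genes. Over 60 combinations of gene and pair, 12 had 1 CPM or more in either line. 7 changes were lower and 2 higher by at least 2-fold. The counts below are descriptions, since these changes were known when the genes were chosen. A gene below 1 CPM in both lines cannot pass 2-fold on this scale. The shares of all genes are therefore over genes with 1 CPM or more in either line. In HCC4006ER 3 of the 6 genes were lower by at least 2-fold, all 3 members at that level, where 10.8% of 14777 genes were. In HepG2S1 and in HepG2S3 *KLK6* was lower, the 1 member at that level. Of all genes 18.4% were lower in HepG2S1 and 17.7% in HepG2S3. In HCC4006GR 1 of the 4 members at that level was lower, *KLK7*, beside 7.47% of all genes. In HCC827GR *KLK6*, the 1 member at that level, was lower, beside 7.67%. In IGROV-1/CDDP both members at that level were higher, *KLK6* and *KLK8*, beside 5.55% of all genes. The changes nearest the 2-fold line were *KLK6* in IGROV-1/CDDP (1.13) and *KLK7* in HCC4006GR (-1.16) past it, and *KLK10* in IGROV-1/CDDP (0.67) and in HCC827GR (-0.64) short of it.

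**Figure D2:**
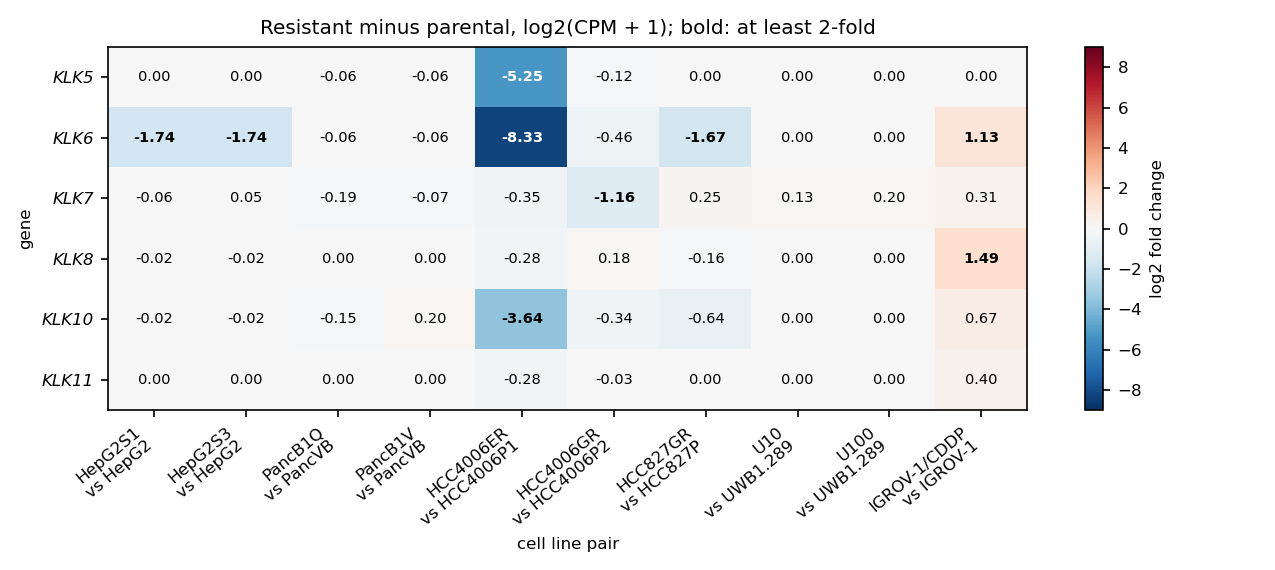
Log2 fold change of the 6 kallikreins (y axis) in 10 resistant cell lines against their parents (x axis), on the log2(CPM + 1) scale; colour and number give the value, and bold marks at least 2-fold. The column of HCC4006ER holds the 3 largest decreases, of KLK6 (-8.33), KLK5 (-5.25) and KLK10 (-3.64), and the column of IGROV-1/CDDP holds the 2 increases past 2-fold.

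In HCC4006ER the transcripts found in its parent were not detected. *KLK6* had 6324 and 5897 counts in the HCC4006P1 libraries and 0 and 0 in the HCC4006ER libraries. *KLK5* went from 765 and 648 counts to 0 and 0, and *KLK10* from 246 and 192 counts to 0 and 0. No parental library overlapped a resistant library for these 3 genes. With 3 counts over both HCC4006ER libraries taken as the limit of detection, a count of 0 lies below 0.0765 CPM (the 95% Wilson interval reaches 0.0979 CPM). Against the limit of 3 counts *KLK6* was at least 4187-fold lower, *KLK5* at least 485-fold lower and *KLK10* at least 150-fold lower, while the 95% counting intervals of the ratios start at 3401, 393 and 121. The log2 fold changes were -8.33 for *KLK6* (SD 0.0922 over 4 pairings of libraries), -5.25 for *KLK5* (SD 0.168) and -3.64 for *KLK10* (SD 0.221). Both HCC4006ER libraries were at 0, so the 4 pairings repeat the values of the 2 HCC4006P1 libraries, and these SD show the parental spread alone. Without the HCC4006P1 library that lacks part of its counts the log2 fold changes were -8.25, -5.10 and -3.44. The low members went the same way, since *KLK7* had 7 and 6 counts in HCC4006P1 and 1 and 1 in HCC4006ER, and *KLK8* and *KLK11* each had 8 counts over the parental libraries and 0 over the resistant ones. All 6 genes were lower in HCC4006ER, with a median log2 fold change of -2.00 beside 0.06 over all genes with 1 CPM or more in either line. Of the 6 members 3 reached that level, so the medians cover unlike sets. The epithelial markers *CDH1* and *EPCAM* went from 510 to 9.49 CPM and from 421 to 24.1 CPM in the same pair, and the mesenchymal markers *VIM* and *FN1* from 568 to 1475 and from 150 to 1415 CPM. Their part in the kallikrein values was not tested.

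HCC4006GR, the gefitinib-resistant line of the other stock, had *KLK5*, *KLK6* and *KLK10* within 2-fold of its parent. *KLK5* was at 895 counts in HCC4006P2 and 910 in HCC4006GR, or 65.8 and 60.2 CPM, a ratio of 1.09-fold lower with a counting interval from 0.995 to 1.20. *KLK10* was 1.28-fold lower (interval 1.12 to 1.46) and *KLK6* 1.38-fold lower (1.25 to 1.53). *KLK7* showed the largest change of the pair, from 55 to 19 counts, 3.21-fold lower (1.88 to 5.73). *KLK8*, at 4 and 7 counts, and *KLK11*, at 3 and 3 counts, could not be told apart between the lines. With 1 library a line these intervals cover counting error only. *CDH1* was at 482 CPM in HCC4006P2 and 499 in HCC4006GR, and *EPCAM* at 344 and 270 CPM, while *VIM* was at 160 and 604 CPM and *FN1* at 77.1 and 169 CPM. Their part in the result was not tested.

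The parental HCC4006 stocks differed from each other in which kallikrein dominated. Per kilobase of exon, *KLK6* made up 86.3% of the summed level of the 6 genes in HCC4006P1, with *KLK5* at 11.9% and *KLK10* at 1.61%. In HCC4006P2 *KLK5* made up 47.4%, *KLK6* 39.5% and *KLK10* 10.8%, and in HCC4006GR the shares were 53.3%, 35.1% and 10.4%. The ratio of *KLK6* to *KLK5* per exon length was 6.92 and 7.61 in the HCC4006P1 libraries, 0.834 in HCC4006P2 and 0.657 in HCC4006GR. This ratio lies within a library and does not depend on its total. Against the mean of the HCC4006P1 libraries, HCC4006P2 had 4.88-fold less *KLK6* (counting interval 4.56 to 5.23), 1.77-fold more *KLK5* (1.63 to 1.94) and 11.9-fold more *KLK7* (6.41 to 23.7). Replicate 1 of HCC4006P1 has the smaller total, so each library was also set against HCC4006P2 alone. *KLK6* was 5.16-fold lower in HCC4006P2 than in replicate 1 and 4.61-fold lower than in the complete replicate 2. *KLK5* was 1.61-fold higher than in replicate 1 and 1.98-fold higher than in replicate 2 (counting interval 1.79 to 2.19). *KLK10* was 2.62-fold and, against replicate 2, 3.50-fold higher (2.95 to 4.16). The direction was the same against both libraries for these 3 genes. *KLK6* and *KLK5* lie side by side, and their levels moved in opposite directions between the stocks.

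**Figure D3:**
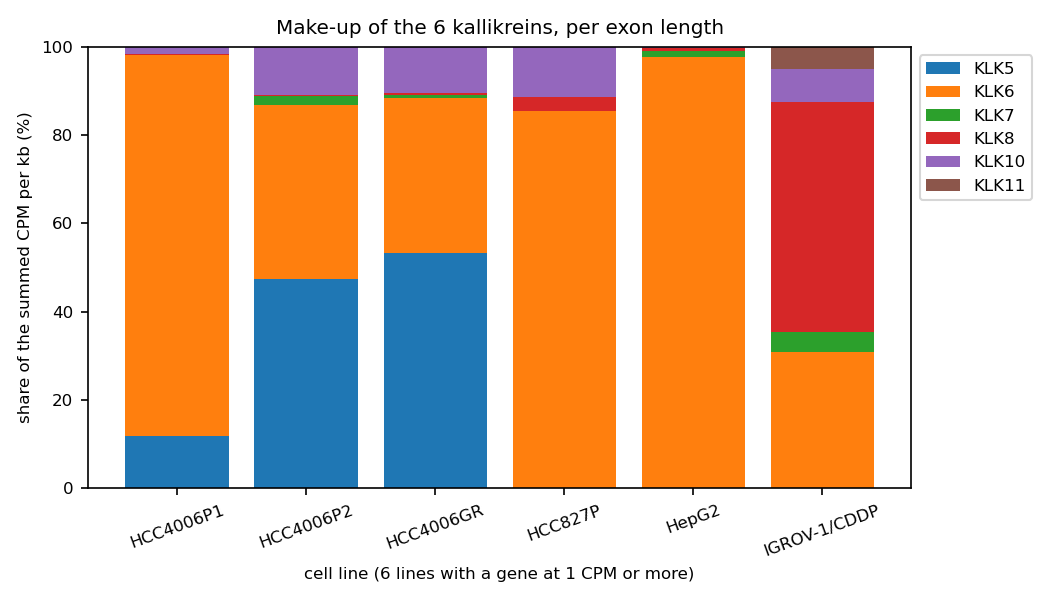
Share of each kallikrein (y axis, percent of the summed CPM per kilobase of exon) in the 6 cell lines with a gene at 1 CPM or more (x axis); stacked colours are genes. KLK6 makes up 86.3% in HCC4006P1, KLK5 and KLK6 share most of HCC4006P2 and HCC4006GR, and KLK8 is the largest share in IGROV-1/CDDP (52.1%).

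In HCC827GR and in the HepG2 lines *KLK6* was the member that changed past 2-fold. HCC827P had 59 counts of *KLK6* (3.40 CPM) and HCC827GR had 6 (0.386 CPM), 8.82-fold lower with a counting interval from 3.82 to 25.0. *KLK10* had 15 and 3 counts in the same lines, 4.48-fold lower (1.27 to 24.2), which is short of 2-fold on the log2(CPM + 1) scale. *KLK5* was at 0 in both HCC827 lines, unlike the HCC4006 stocks of the same tissue. *CDH1* went from 748 to 53.3 CPM, *EPCAM* from 480 to 24.1 CPM, *VIM* from 65.6 to 675 CPM and *FN1* from 216 to 506 CPM in this pair, and their part in the result was not tested. The HepG2 libraries had 51 and 114 counts of *KLK6*, and HepG2S1 and both HepG2S3 libraries had 0. HepG2S3 was at least 48.7-fold lower and HepG2S1, with the smallest library, at least 7.66-fold lower against 3 counts, with counting intervals that start at 38.8 and 6.10. The log2 fold change was -1.74 for both (SD 0.483 over 4 pairings for HepG2S3, which repeat the values of the HepG2 libraries since both HepG2S3 libraries were at 0). These pairs share the HepG2 libraries, which differed from each other in *KLK6*, at 1.39 and 3.27 CPM. HepG2 made 97.7% of its kallikrein level per kilobase from *KLK6* and had no other member above 3 counts in a library. *CDH1* was at 144 CPM in HepG2, 0.305 in HepG2S1 and 0.528 in HepG2S3, and *EPCAM* at 215, 5.99 and 2.88 CPM. The mesenchymal markers went opposite ways, with *VIM* at 0.0976, 1215 and 1115 CPM and *FN1* at 15673, 138 and 286 CPM in these lines. Their part in the *KLK6* values was not tested.

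IGROV-1/CDDP went the other way. Its parent had 3 counts over the 6 genes and IGROV-1/CDDP had 112, with library totals of 27485701 and 25281198. *KLK8* had 2 counts in the parent and 51 in IGROV-1/CDDP, a ratio of 27.7 with a counting interval from 7.29 to 235. *KLK6* went from 1 to 32 counts, a ratio of 34.8 (5.81 to 1417). *KLK10*, *KLK11* and *KLK7* had 0 counts in IGROV-1 and 15, 8 and 6 in IGROV-1/CDDP, at least 5.44-fold, 2.90-fold and 2.17-fold higher against 3 counts. The 95% counting intervals of these ratios start lower, at 3.90, 1.86 and 1.28. *KLK5* was at 0 in both lines. *KLK8* made up 52.1% and *KLK6* 30.8% of the level per kilobase. *KLK8* was the largest share in 1 of the 6 lines with a gene at 1 CPM or more, this one. The number of members with 3 counts or more was 0 of 6 in the parent and 5 of 6 in the resistant line. *CDH1* went from 13.0 to 0.593 CPM and *EPCAM* from 5.97 to 0.316 CPM, with *VIM* at 384 and 487 CPM and *FN1* at 29.7 and 227 CPM, and their part in the result was not tested. With 1 library a line there is no replicate check of this pair.

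The remaining kallikreins place these changes in the cluster. In IGROV-1/CDDP *KLK9*, at 0 and 8 counts, *KLK13*, at 1 and 15, and *KLK1*, the tissue kallikrein, at 33 and 68 counts, were higher than in IGROV-1. *KLK2*, an androgen-regulated prostate gene, had 30 counts in IGROV-1 (1.09 CPM) and 0 in IGROV-1/CDDP, at least 9.20-fold lower. Of all 15 kallikreins 4 had 3 counts or more in the parent and 10 in the resistant line. *KLK3*, which encodes prostate-specific antigen, and *KLK15* were at 0 in all 21 libraries. *KLK14*, a trypsin-like skin protease at the far end of the cluster, had at least 1 count in each library, from 0.0958 to 2.12 CPM over the lines. *KLK14* had 43 and 36 counts in HepG2 and 3 and 3 in HepG2S3, and 21 and 20 in HCC4006P1 and 4 and 6 in HCC4006ER. Of the 10 protein-coding genes next to the cluster, 5 on each side, 9 had a row in the count files, and of these 9 *CTU1* alone passed 10 CPM in a line, with 12.3 at most.

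**Figure D4:**
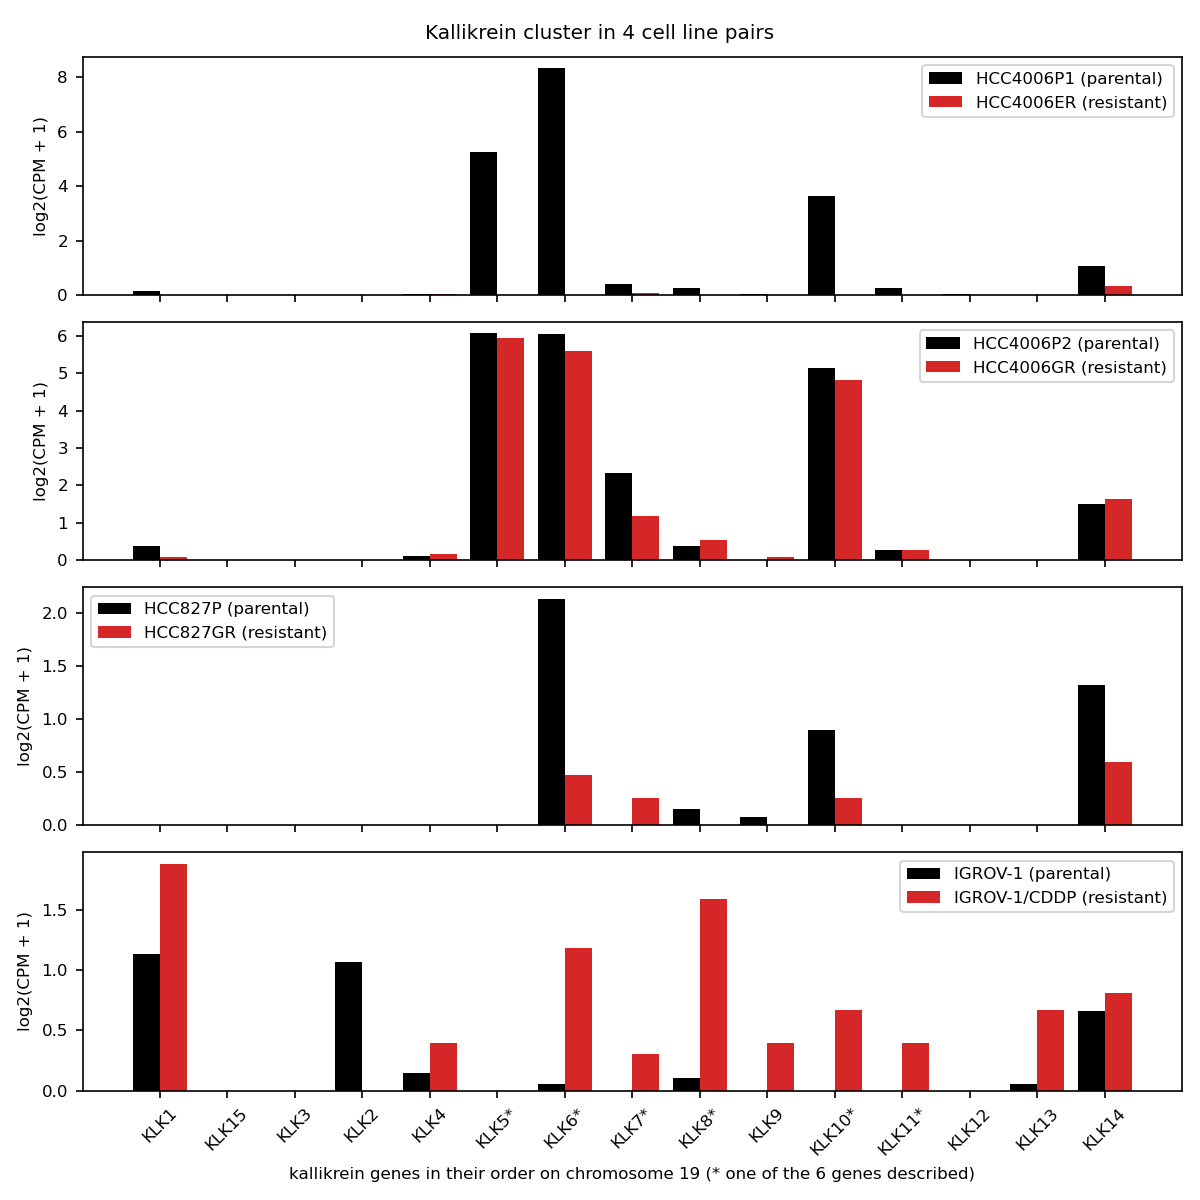
Level of all 15 kallikreins as log2(CPM + 1) (y axis) in their order on chromosome 19 (x axis) for 4 pairs; black bars are parental and red bars resistant lines, means where there are 2 libraries. HCC4006ER lacks the bars of KLK5, KLK6 and KLK10 that HCC4006P1 has, HCC4006GR keeps those of HCC4006P2, and IGROV-1/CDDP has 10 kallikreins at 3 counts or more against 4 in IGROV-1.

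The pancreatic and UWB1.289 families expressed almost none of these genes. PancVB had 9 counts over the 6 genes, PancB1Q 2 and PancB1V 11, of which 9 were of *KLK10*. UWB1.289 had 0 counts of any member, U10 had 1 and U100 had 2, all of *KLK7*. No member reached 1 CPM in these 6 lines, so on the log2(CPM + 1) scale no change in the 4 pairs could pass 2-fold. That none did is therefore no result about these genes. With a pseudocount of 0.1 CPM *KLK7* passed 2-fold in PancB1Q (-1.25) and in U100 (1.34), at 3 counts or fewer in each line. In these 6 lines 3 counts, the limit of detection, corresponded to at most 0.293 CPM.

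Across the 17 lines log2(CPM + 1) of *KLK5* and *KLK10* had a Pearson r of 0.98, *KLK5* and *KLK6* 0.93 and *KLK6* and *KLK10* 0.92. *KLK8* had r of 0.85 with *KLK11* and 0.27 to 0.35 with the others. Most lines share a parent with another line, and 3 lines carry the high values, so these r are descriptions. Of 11517 genes with 10 CPM or more in 3 lines, the 10 whose pattern was most like the mean of the 6 members were *SPDEF* (r = 0.98), *FXYD3* (0.98), *ADGRF5* (0.97), *PDHX* (0.96), *CAPRIN1* (0.95), *FBXO3* (0.95), *EIF3M* (0.94), ENSG00000250527 (0.94), *COMMD9* (0.94) and *CEACAM6* (0.92). *SPDEF*, an epithelial transcription factor, was at 53.4 CPM in HCC4006P1, 90.2 in HCC4006P2, 63.5 in HCC4006GR and 0.0514 in HCC4006ER. *CEACAM6*, an epithelial surface glycoprotein, was at 99.7, 7405, 614 and 0.0257 CPM in these lines. 5 of the 10 lie together at chr11:32605344-36310999 (GRCh37). Of these *CAPRIN1*, which encodes an RNA-binding protein, was at 3739 CPM in HCC4006P1, 3803 in HCC4006P2 and 3007 in HCC4006GR but 489 in HCC4006ER, within the range of the other 13 lines (304 to 717). *PDHX*, a component of the pyruvate dehydrogenase complex, was at 405, 401 and 268 CPM in the first 3 lines and 22.2 in HCC4006ER. All 5 were lower in HCC4006ER than in each of these 3 lines. The 10 genes were picked for a pattern like that of the members, so this difference follows from the choice and is no separate result.

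**Figure D5:**
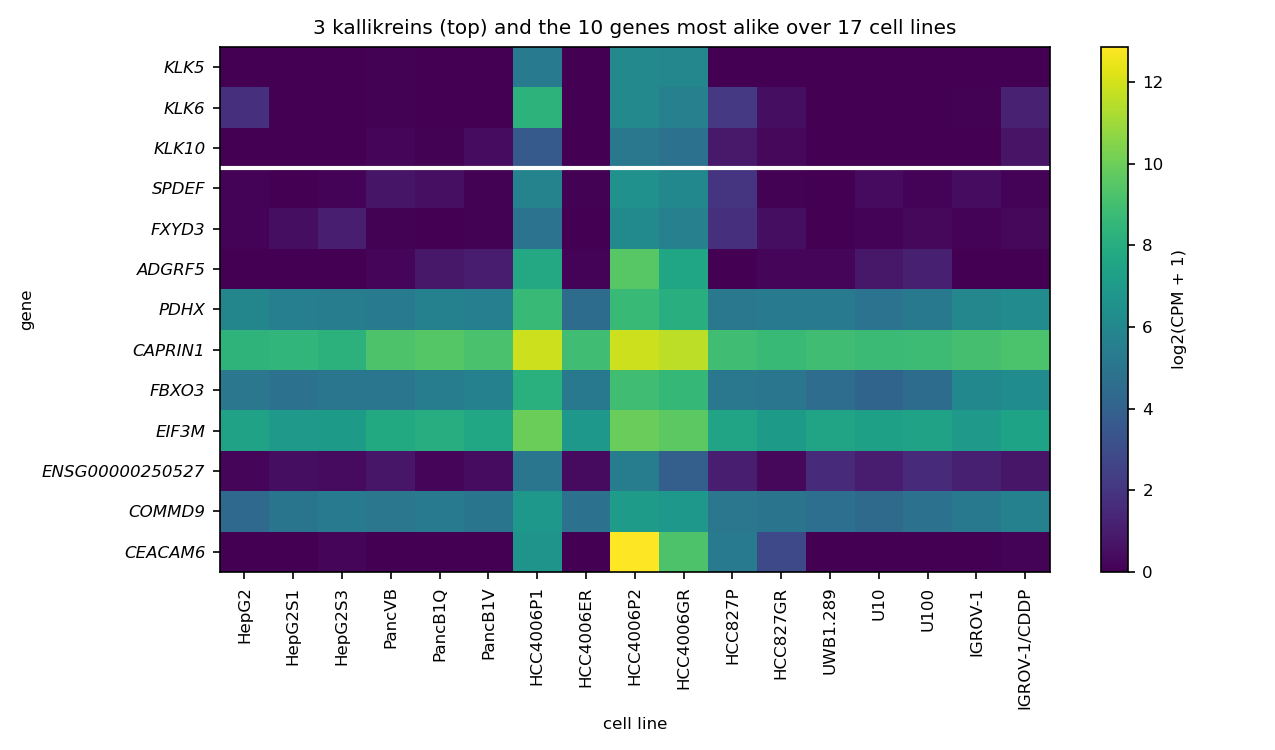
Log2(CPM + 1), as colour, of KLK5, KLK6 and KLK10 (top 3 rows) and of the 10 genes with the most alike pattern (rows below, y axis) in 17 cell lines (x axis). HCC4006P1, HCC4006P2 and HCC4006GR are the bright columns and HCC4006ER, between them, is as dark as the other tissues, with CAPRIN1 at 489 CPM. The 10 genes were picked for this likeness, so the shared pattern follows from the choice.

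Genes that act on or beside the kallikreins were tested with edgeR in the pairs with 2 libraries a side, over 39 listed genes. The lists were chosen with earlier results of these data known. Their counts beside the shares of all genes, and their p-values, are therefore descriptions and no independent test of the lists. In HepG2S3 against HepG2, 7 of 24 tested list genes rose and 12 fell (adjusted p under 0.05), where 31.4% of all 16929 genes tested rose and 32.1% fell. In HCC4006ER against HCC4006P1, 2 of 25 rose and 12 fell, where 10.5% of 15978 genes rose and 10.9% fell. In 7 resistant against 7 parental profiles, with the parental line as a block, edgeR called 0 of 16090 genes higher and 0 lower (0% each), 760 had an unadjusted p under 0.05, 1 of them on the lists, and DESeq2 called 93 higher and 20 lower, 0 of them on the lists. Of the members, *KLK6* passed the filter on low counts in the HepG2S3 fit, *KLK5*, *KLK6* and *KLK10* in that of HCC4006ER, and none in the third fit. No test of them is given. In the third fit HCC4006P1 and HCC4006P2 are stocks of 1 line, so their blocks are not independent lines. Nothing says that replicate libraries came from separate cultures, so these p-values measure only the spread between the libraries, which may be technical.

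The HCC4006ER calls depended on single libraries. Without either HCC4006ER library 0 list genes and 0 of all genes were called, and without HCC4006P1 replicate 1 or 2 the list counts were 6 higher and 14 lower or 5 higher and 16 lower. With the replicate number as a block no call of this pair was left, with 0 list genes and 0 of all genes called. With the block and without the genes missing in HCC4006P1 replicate 1, 5 list genes were higher and 15 lower. The adjusted p of HCC4006ER below are from the fit without the block.

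The inhibitors changed in both directions in HepG2S3, with 3 of 9 tested higher and 5 lower. *SPINK6*, an inhibitor of kallikreins, had 0 and 1 counts in HepG2 and 2860 and 3309 in HepG2S3, a ratio of 6877 (counting interval 1263 to 278087, edgeR adjusted p = 4.0e-05). The plasma inhibitors *SERPINA1* (log2 fold change -10.97, SE 0.614, edgeR adjusted p = 0.000125), *SERPINA3* (-11.47, SE 1.45, adjusted p = 0.00163) and *A2M* (-10.64, SE 0.473, adjusted p = 7.0e-05) fell. *A2M* was at 6041 and 4369 CPM in HepG2 and at 2.94 and 5.22 in HepG2S3. In HCC4006ER 0 of 7 tested inhibitors rose and 4 fell, *SERPINA1* among them (-2.40, SE 0.285, edgeR adjusted p = 0.0284). *SPINT1*, on the same list, had 7569 and 5572 counts in HCC4006P1 and 89 and 72 in HCC4006ER. *SPINK5* was too low to be tested in any of the fits, at 3 and 2 counts in HepG2 and 8 and 7 in HCC4006P1. Its highest levels were in other lines, at 6.90 CPM in HepG2S1, 3.82 in HCC4006P2, 3.75 in HCC827P and 1.22 in HCC827GR.

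Of the membrane-bound serine proteases 3 of 5 tested fell in HCC4006ER. *ST14*, which encodes matriptase, was at 281 and 230 CPM in HCC4006P1 and 0.658 and 0.514 in HCC4006ER (log2 fold change -8.72, SE 0.217, edgeR adjusted p = 0.0147). *PRSS8*, its partner prostasin, went from 130 and 79.3 CPM to 0.202 and 0.0514 (-9.56, SE 0.885, adjusted p = 0.0225), and *TMPRSS4* fell as well (-6.65, SE 0.669, edgeR adjusted p = 0.0238). In HepG2S3 3 of 4 fell, led by *HPN*, the liver protease hepsin, from 140 and 95.2 CPM to 0.0312 and 0.0979 (-11.07, SE 0.444, adjusted p = 5.5e-05). *ST14* also fell there, from 28 and 39 counts to 8 and 7 (-2.27, SE 0.385, edgeR adjusted p = 0.00445).

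Of receptors and substrates 3 of 5 tested fell and 1 rose in HCC4006ER, and 2 of 5 fell in HepG2S3. *F2RL1*, a protease-activated receptor that kallikreins can cleave, fell in both, from 103 and 75.4 CPM to 10.2 and 12.1 in HCC4006ER (log2 fold change -2.96, SE 0.149, edgeR adjusted p = 0.0149) and from 157 and 376 CPM to 27.0 and 29.4 in HepG2S3 (-3.55, SE 0.437, adjusted p = 0.00149). *CDH1*, which encodes E-cadherin, fell in HCC4006ER (-5.72, SE 0.214, edgeR adjusted p = 0.0147) and in HepG2S3, from 107 and 182 CPM to 0.469 and 0.588 (edgeR adjusted p = 7.6e-05). *DSG2*, a desmosomal cadherin, fell in HCC4006ER (-2.32, SE 0.106, edgeR adjusted p = 0.0148), and *F2R*, another protease-activated receptor, rose (0.92, SE 0.158, adjusted p = 0.0460). Among nuclear receptors, which can regulate kallikreins, 4 of 5 tested rose in HepG2S3 and 1 fell, and 1 of 7 rose and 1 fell in HCC4006ER. *RARG* (4.05, SE 0.274, edgeR adjusted p = 0.000212), *VDR* (3.29, SE 0.561, adjusted p = 0.00452) and *ESR1* (2.63, SE 0.601, adjusted p = 0.0129) rose in HepG2S3. *PGR*, the progesterone receptor, had 0 counts in both HCC4006P1 libraries and 77 and 74 in HCC4006ER, at least 49.0-fold higher against 3 counts (counting interval from 39.4, edgeR adjusted p = 0.0213). The other parental stock already had *PGR*, at 4.85 CPM in HCC4006P2 beside 3.85 in HCC4006ER, and its resistant line HCC4006GR was lower, at 0.0662 CPM. *KLK14* fell in HepG2S3 (-3.79, SE 0.389, edgeR adjusted p = 0.000814) and in HCC4006ER (-2.02, SE 0.340, adjusted p = 0.0451).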

How the data were processed

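RNA of 17 cell lines was sequenced in 21 libraries. The authors deposited raw counts of reads per gene for each library, not normalized. The submitters' processing notes name Bowtie, TopHat, SAMtools and HTSeq and the build hg19 (GRCh37), with no versions. The labels give a strand-keeping poly(A) kit for every sample, while the methods also name a kit for 3′ ends whose reads were mapped with STAR. Levels per exon length assume reads over the whole transcript. Rows that name no gene held 28.0% to 42.8% of the deposited counts and were left out.

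The 6 genes and the lists of related genes were chosen with earlier results of these data known. CPM were computed from the total on genes, the libraries of a line were averaged, and changes are on the log2 scale after adding 1 CPM. Levels have 95% Wilson intervals and ratios have exact conditional binomial intervals. They cover counting error only, since reads without molecular identifiers are not independent molecules. A bound against 0 counts uses 3 counts over the libraries of a line. Lines were grouped by the cell line label and paired as in the study. Of 53515 identifiers 84.3% matched GENCODE v44 on GRCh37, which gave positions and exon lengths. Promoter windows were from RefSeq on GRCh38.p14, placed on GRCh37 by exact match.

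List genes were tested in the whole table with the quasi-likelihood test of edgeR 4.0.16 (TMM, filterByExpr, Benjamini-Hochberg adjusted p under 0.05), for HepG2S3 against HepG2, HCC4006ER against HCC4006P1, and 7 resistant against 7 parental profiles summed per parental line, with the parental line as a block. SE are the log2 fold change over the root of the F statistic. The lists were 9 other kallikreins, 10 inhibitors, 5 membrane proteases, 8 receptors and substrates and 7 nuclear receptors. Named were list genes with a call in any fit, at most 4 a list by the size of the change, other kallikreins with 1 CPM or more in any line, cluster neighbours with 10 CPM or more, and the 10 genes most alike in Pearson r. *KLK3*, *KLK9*, *KLK13*, *KLK15*, *SPINK5*, *SPINT1* and *SPINT2* fall outside this rule and were chosen after their values were seen. Alternatives were DESeq2 1.42.0, library totals without TMM, no filter, the replicate number as a block, pseudocounts of 0.1 and 10 CPM, totals without the genes missing in HCC4006P1 replicate 1, and each replicate left out. For the fit of 7 against 7 profiles, the HCC4006 stocks as 1 block and HCC4006P1 from replicate 2 alone were also tried. The fits were also run on simulated counts with a few known changes and a fixed spread. That setting is simpler than these data, so it does not bear on the calls given here. R 4.3.3 and Python 3.11.15 were used.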

Additional observations from a re-analysis of the deposited data

Results flagged for a closer look

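*KLK6* changed past 2-fold in opposite directions in different cell lines, in every pairing of libraries. Its log2 fold change was -1.74 in HepG2S1 and -1.74 in HepG2S3, both against HepG2, -8.33 in HCC4006ER, -1.67 in HCC827GR and 1.13 in IGROV-1/CDDP. The difference between these changes was not tested. *SPINT2*, an inhibitor of membrane serine proteases, was called in opposite directions by edgeR in the 2 replicated pairs, with a log2 fold change of 6.05 in HepG2S3 against HepG2 and -1.89 in HCC4006ER against HCC4006P1. Its counts were 14 and 21 in HepG2, 1435 and 1114 in HepG2S3, 8200 and 6831 in HCC4006P1 and 1977 and 2084 in HCC4006ER, and the difference between the changes was likewise not tested.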

How the results depend on the processing

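The member changes lower by at least 2-fold numbered 7, and 13 with a pseudocount of 0.1 CPM and 3 with 10 CPM. Those higher numbered 2, and 7 and 0 with these pseudocounts. With 10 CPM the changes that remained past 2-fold were those of *KLK5*, *KLK6* and *KLK10* in HCC4006ER. Under TMM-scaled sizes, totals outside the missing genes and each replicate left out the counts stayed at 7 and 2. Of all alternative values for single members, those with the other pseudocounts included, 253 stayed within the spread and 47 moved by more. Many of these values are of genes near 0 counts. Reversal was looked for only in the changes past 2-fold, and 0 of these reversed. In HepG2S3 against HepG2 the replicates left out gave 3567 to 6580 genes higher and 3737 to 6662 lower, and 5 to 7 and 11 to 14 list genes. With library totals alone the split was 6761 higher and 4305 lower beside 5308 and 5436.

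In HCC4006ER against HCC4006P1 edgeR called 1673 genes higher and 1744 lower. The counts were 3518 and 3647 with DESeq2 (5 list genes higher), 669 and 788 with library totals alone (1 list gene higher), 1004 and 1156 with no filter (1 list gene higher), and 3099 and 3237 without the genes missing in HCC4006P1 replicate 1 (4 list genes higher). Leaving out a replicate gave 0 to 6758 genes higher and 0 to 5176 lower, and 0 to 6 list genes higher and 0 to 16 lower. With the replicate block 0 genes and 0 list genes were called in either direction, and with the replicate block and without the missing genes 3842 rose and 3882 fell (5 list genes higher). Libraries with the same number deviated together with r = 0.05 for HepG2S3 and HepG2 and 0.10 for HCC4006ER and HCC4006P1 (0.32 without the missing genes). With 2 pairs each and no label saying that a number marks a shared batch, pairing was not established and the values given have no block, although same-numbered HCC4006 libraries did deviate together outside the missing genes. In the parental block fit DESeq2 called 93 genes higher and 20 lower where edgeR called 0. The cause of these differences was not tested. Of the alternative values for called list genes 234 kept their call, 58 lost it and 0 reversed. Fits without a replicate leave 1 library on a side, which is assumed to vary like the other side.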
